A study of Mus musculus with 4 samples.

Results

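Cytochrome P450 enzymes of families 1, 2 and 3 were examined in the liver of wild-type (WT) mice and of mice lacking SREBP1c (KO), which is encoded by Srebf1 and drives fatty acid synthesis in response to insulin. The genes were chosen by name, as those whose symbol starts with Cyp1, Cyp2 or Cyp3 followed by a subfamily letter and a number. The rule found 61 genes of 16 subfamilies, with 69 transcript rows, among 23920 genes and 33170 rows. Each of the 61 was found by its gene number in a RefSeq gene table, where 1 symbol differs: the gene listed here as Cyp2c44 is named Cyp2c23 there.

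The labels describe C57BL/6 males 12 weeks old in both groups, given food again for 12 h following a fast of 24 h. Each genotype, SREBP1c WT and SREBP1c KO, had 2 liver RNA libraries. The labels do not say how the KO allele was made or whether each library came from another animal, so a p-value measures only the spread between these libraries, which may be technical. Values are FPKM (fragments scaled to transcript length and to the mapped fragments of the library), summed over the transcript rows of a gene. Differences are KO minus WT on log2(FPKM + 1), and the test is limma over the 9820 genes whose mean was 1 FPKM or more, with a threshold of 0.05 on the Benjamini-Hochberg adjusted p.

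As background, P450s are heme enzymes of the endoplasmic reticulum that insert 1 atom of oxygen into drugs, toxicants, steroids, bile acids and polyunsaturated fatty acids, with electrons passed on by the reductase Por. Their transcription in hepatocytes is set by receptors that sense foreign compounds, namely AhR for family 1, and CAR (Nr1i3) and PXR (Nr1i2) for many genes of families 2 and 3. Growth hormone patterns make several of them sex-dependent, and many are restricted to the hepatocytes around the central vein. In bulk tissue, fewer cells of a type and less RNA per cell cannot be told apart.

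Srebf1, the targeted gene, had 63.7 and 58.2 FPKM in WT against 8.63 and 6.97 FPKM in KO (log2 difference −2.82, SE 0.13, limma adjusted p = 0.00172). Leaving out WT replicate 1 gave a limma adjusted p of 0.114 and leaving out WT replicate 2 one of 0.0898, with differences of −2.76 and −2.88. Of 7 hepatocyte markers 6 had a mean of at least 1 FPKM, with sums of 16205 and 17836 FPKM in WT against 15359 and 15410 FPKM in KO. Of the 6, 4 had a negative and 2 a positive difference. Cps1, picked after its values were seen, had 620 and 621 FPKM in WT against 362 and 400 in KO. Alb was listed at 0 in every library. A value of 0 in this table therefore says only that a gene is listed at 0. Acute phase genes, which inflammation raises in liver, summed to 14444 and 17973 FPKM in WT, 12259 in KO replicate 1 and 31740 in KO replicate 2. The 9 Kupffer cell and macrophage markers in the table, of 10 listed, summed to 166 and 139 FPKM in WT and to 144.5 and 235 in KO replicates 1 and 2, with none at 0 in all libraries. Cholangiocyte markers, 5 of 5 in the table and none at 0, summed to 25.4 and 23.5 FPKM in WT against 50.2 and 41.7 in KO, mostly through Spp1. The part of these differences in the results below was not tested.

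Of the 10 subfamilies with a member at a mean of at least 1 FPKM, Cyp3a had the summed level that differed most between the genotypes, and promoters of Cyp3a genes are therefore shown. Each is the stretch from 250 bases before to 50 bases after a transcript start in RefSeq on GRCm38.p6 (the mm10 assembly), written 5′ to 3′ along the gene. These starts lie 0 to 50 bases inside the outer end of the gene for Cyp3a11, Cyp3a44, Cyp3a25 and Cyp3a59, but 3991 bases inside it for Cyp3a13, whose window therefore describes an inner start and not the outermost one. Capitals mark the hexamers AGGTCA or AGTTCA on either strand, the half-sites that nuclear receptors such as PXR and CAR bind in pairs. Cyp3a11, Cyp3a25 and Cyp3a59 were lower in both KO libraries. Cyp3a44, a neighbour with a promoter like that of Cyp3a11, was also lower in both but has almost no RNA. Cyp3a13 lies apart, with overlapping groups.
Cyp3a11, chr5:145879805-145880104, minus strand: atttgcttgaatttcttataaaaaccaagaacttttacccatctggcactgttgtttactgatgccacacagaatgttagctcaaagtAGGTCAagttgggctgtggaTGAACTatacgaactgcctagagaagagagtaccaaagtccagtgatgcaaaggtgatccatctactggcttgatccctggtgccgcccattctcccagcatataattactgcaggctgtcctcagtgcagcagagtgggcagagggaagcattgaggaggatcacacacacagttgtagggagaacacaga
Cyp3a44, chr5:145805825-145806124, minus strand: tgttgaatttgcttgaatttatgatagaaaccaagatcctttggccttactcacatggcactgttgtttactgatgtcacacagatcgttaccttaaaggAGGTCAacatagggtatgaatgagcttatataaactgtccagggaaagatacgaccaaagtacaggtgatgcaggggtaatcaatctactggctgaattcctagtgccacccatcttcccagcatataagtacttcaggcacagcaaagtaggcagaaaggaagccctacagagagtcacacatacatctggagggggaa
Cyp3a25, chr5:146009568-146009867, minus strand: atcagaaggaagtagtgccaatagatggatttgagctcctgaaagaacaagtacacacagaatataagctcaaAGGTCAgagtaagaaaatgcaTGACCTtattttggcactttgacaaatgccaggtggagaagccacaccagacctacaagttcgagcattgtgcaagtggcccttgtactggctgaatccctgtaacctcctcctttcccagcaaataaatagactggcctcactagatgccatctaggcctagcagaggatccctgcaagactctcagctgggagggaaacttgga
Cyp3a59, chr5:146079008-146079307, plus strand: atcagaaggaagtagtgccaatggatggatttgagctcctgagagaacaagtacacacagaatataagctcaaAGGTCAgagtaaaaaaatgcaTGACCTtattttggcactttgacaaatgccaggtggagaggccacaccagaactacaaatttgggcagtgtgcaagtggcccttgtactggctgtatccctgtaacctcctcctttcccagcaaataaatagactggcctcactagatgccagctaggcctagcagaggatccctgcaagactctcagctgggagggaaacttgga
Cyp3a13, chr5:137921570-137921869, minus strand: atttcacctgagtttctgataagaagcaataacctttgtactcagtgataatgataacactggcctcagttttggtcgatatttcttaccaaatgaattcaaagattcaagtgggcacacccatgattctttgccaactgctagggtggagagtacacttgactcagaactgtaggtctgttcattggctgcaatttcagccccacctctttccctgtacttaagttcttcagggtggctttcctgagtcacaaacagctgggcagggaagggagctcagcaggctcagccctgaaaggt

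In these windows the Cyp3a25 and Cyp3a59 promoters are 96.3% identical, whereas Cyp3a11 is 57.2% identical to Cyp3a25 and 71.8% to Cyp3a44. Cyp3a13 is 57.4% identical to Cyp3a11. A half-site was present 2 times in each of Cyp3a11, Cyp3a25 and Cyp3a59, 1 time in Cyp3a44 and in no position of the Cyp3a13 window, which describes an inner start. Cyp3a16, near Cyp3a44 and with a lower mean in KO, also had none. Cyp2c39, Cyp2c50, Cyp2c69 and Cyp2d40, higher in both KO libraries, had a half-site. Whether half-sites go with the KO difference was not tested. Taking 1 window a gene, such a match was found in 23 of the 51 members with a promoter in the table (45.1%) and in 27.7% of all 32851 promoters of that length. CAAAGTC, the core of an HNF4-type element, occurred in 17 of the 51 (33.3%), Cyp3a11 among them, against 4.4% of all promoters. TCACNCC, a core of SREBP-type elements, occurred in 8 (15.7%) against 15.6% of all, and in none of the 5 windows shown. These are letter matches on either strand and not sites.

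Across the 4 libraries the members spanned levels from 0 to 2583 FPKM. The mean was 1 FPKM or more in 38 genes of 10 subfamilies, 17 had a lower mean above 0, and 6 were listed at 0 in every library (Cyp2b19, Cyp2b23, Cyp2c66, Cyp2j11, Cyp2j12 and Cyp2w1). The 38 are those that could be tested. Cyp2j9, at a mean of 1.17 FPKM, was the lowest of them, and Cyp1a1, at 0.892 FPKM, the highest left out. In 17 members the mean was 100 FPKM or more, and the 10 highest made up 81.8% of the members' summed FPKM. That sum was 9256 and 9842 FPKM in WT against 9509 and 8860 FPKM in KO, or between 1.65% and 1.81% of the summed FPKM of each library. The groups overlapped, with a KO to WT ratio of 0.962.

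**Figure D1:**
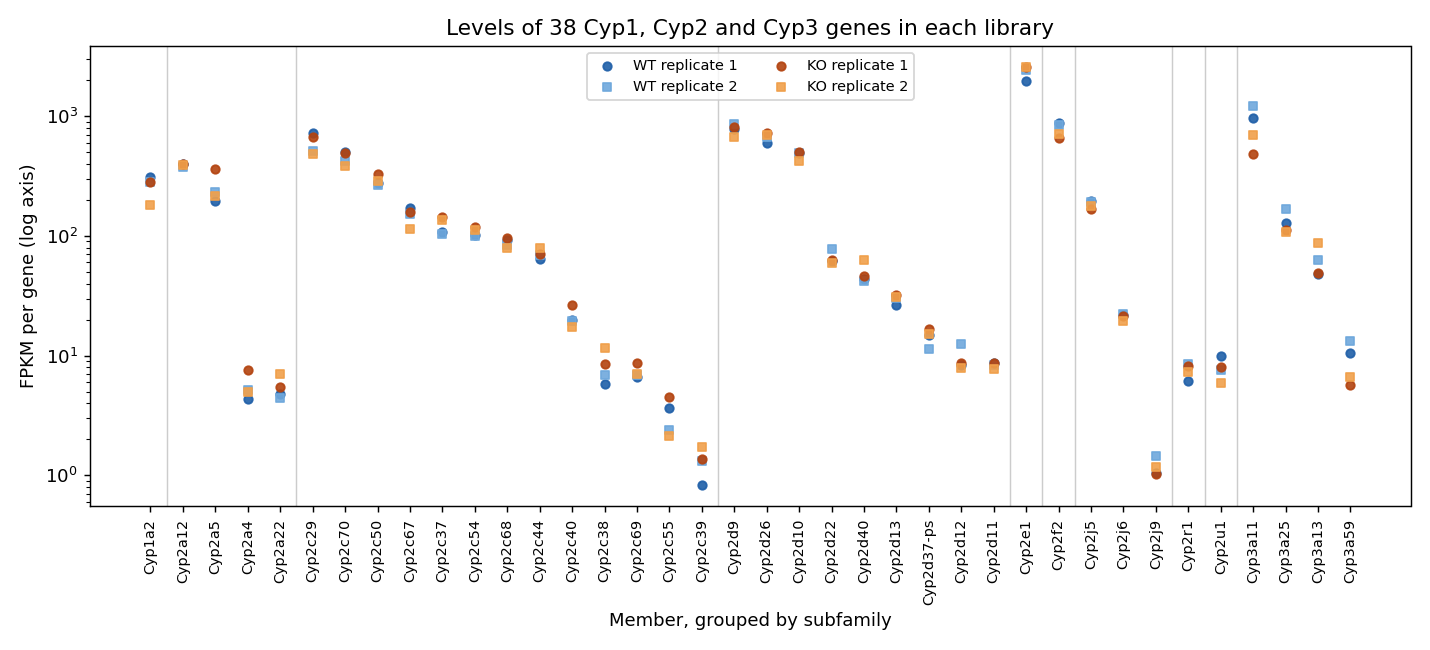
FPKM on a log axis of the 38 members with a mean of at least 1 FPKM, grouped by subfamily; circles are replicate 1, squares replicate 2, blue WT and orange to brown KO. Cyp2e1 is the highest gene in each library. Both KO points sit above both WT points in 13 members (34.2%, against 22.4% of all genes). They sit below in 7 (18.4%, against 16.4%), Cyp2f2, Cyp3a11, Cyp3a25 and Cyp3a59 among them.

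None of the 38 members passed the limma threshold over all genes, where 0.0713% of the genes tested did (7 of 9820; 0.0102% higher and 0.0611% lower in KO). The smallest adjusted p of a member was 0.205. With KO replicate 1 or KO replicate 2 left out, many more genes were called over all genes, some members among them. There the lone library of a group is assumed to vary like the other group. A member passing in those fits is therefore not read as a result. At an unadjusted p under 0.05, 7 members were found (18.4%), against 7.75% of all genes; 3 were higher in KO (7.89%, against 4.5%) and 4 lower (10.5%, against 3.25%). Both KO libraries lay above both WT libraries in 13 members (34.2%; 22.4% of all genes) and below them in 7 (18.4%; 16.4% of all genes), so 20 did not overlap in either direction (52.6%; 38.7% of all genes). A difference of at least 0.5 in size was found in 3 members (7.89%; 3.68% of all genes). Of the 38, 20 had a positive difference (52.6%; 54.6% of all genes) and 18 a negative one, with a median of 0.05 against 0.02 over all genes. Medians of the subfamilies with at least 3 tested members ran from −0.63 in Cyp3a to 0.34 in Cyp2a.

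**Figure D2:**
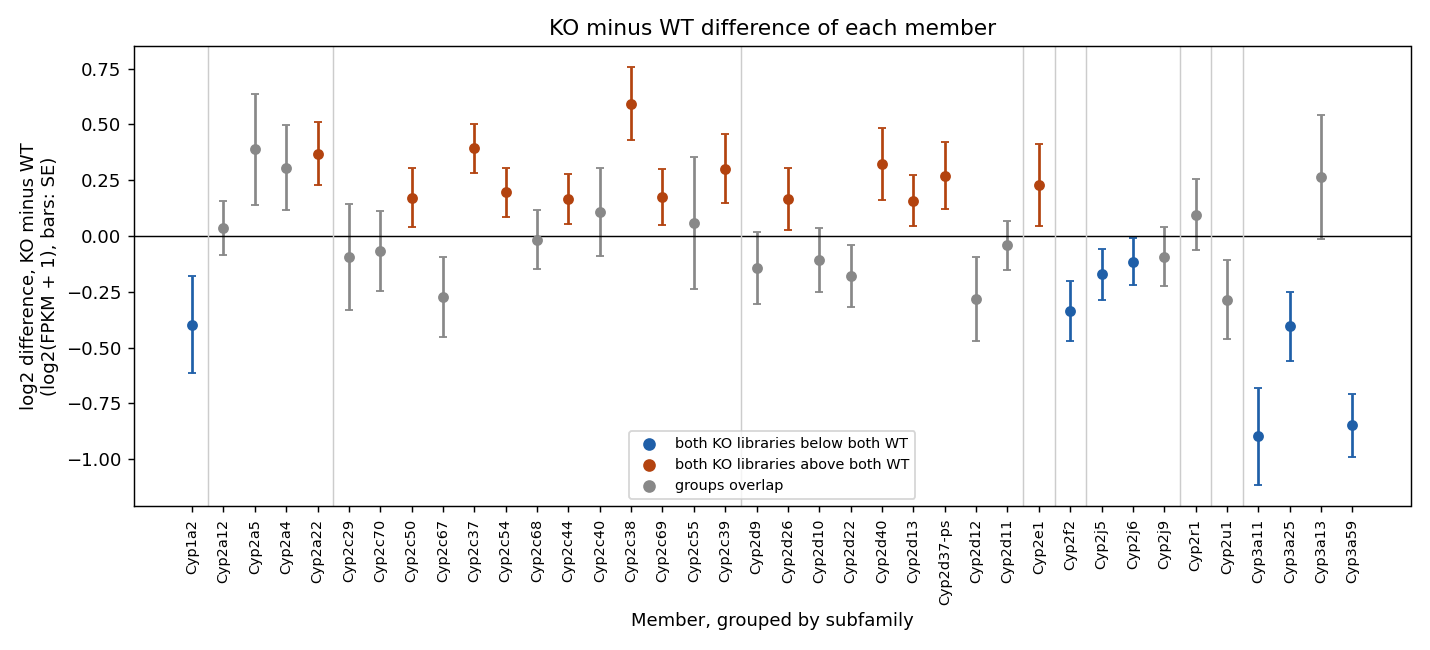
KO minus WT difference on log2(FPKM + 1) with its standard error for the 38 members, grouped by subfamily; colours tell whether the 2 KO and 2 WT libraries overlap. Differences ran from −0.90 in Cyp3a11 to 0.59 in Cyp2c38, with no member past the adjusted threshold.

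**Figure D3:**
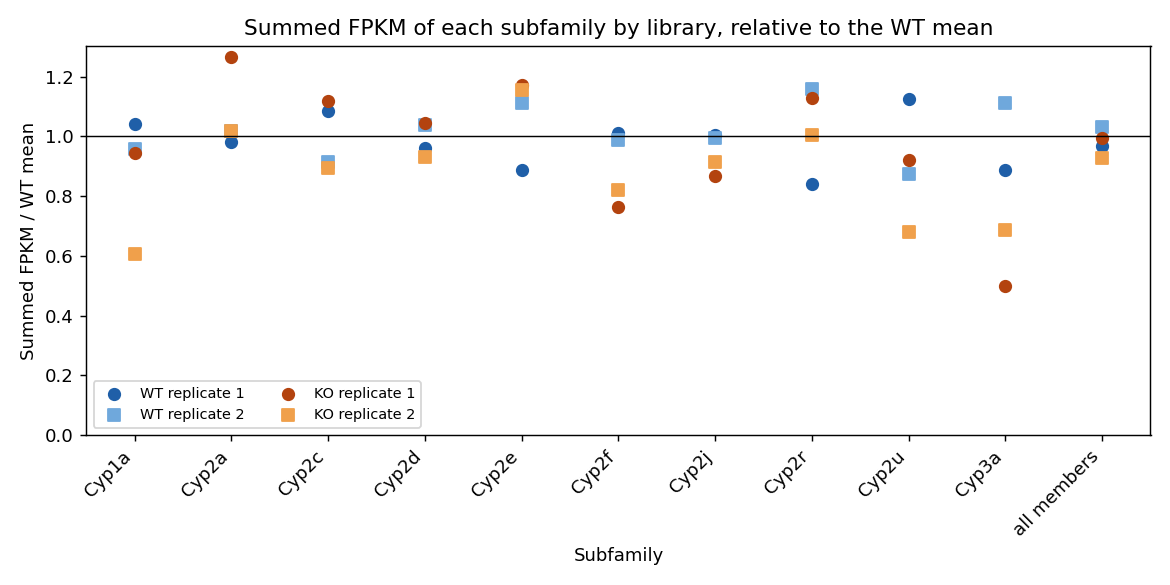
Summed FPKM of the 10 subfamilies with a member at a mean of at least 1 FPKM, and of all members, in each library, divided by the mean of the 2 WT libraries. Cyp3a lies lowest in KO, at a KO to WT ratio of 0.594, and the sum over all members stays near 1.

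The Cyp3a subfamily, which metabolises many drugs, steroids and bile acids, summed to 1160 and 1454 FPKM in WT against 655 and 897 FPKM in KO. Both KO libraries were lower, at a KO to WT ratio of 0.594. An exact permutation test of 2 against 2 has 0.333 as its smallest two-sided p, and the sums were not tested. Cyp3a11, the main hepatic Cyp3a enzyme of mice and a standard PXR target, made up 80.8% of the subfamily sum. It had 972.8 and 1209.8 FPKM in WT against 487 and 694 FPKM in KO. KO replicate 1 was the lower of the KO pair, and the groups did not overlap. The means were 1091 ± 168 in WT and 591 ± 146 in KO (SD, n = 2 each), a log2 difference of −0.90 with SE 0.22 (limma adjusted p = 0.405). Leaving out KO replicate 1 gave a limma adjusted p of 0.0446 and leaving out KO replicate 2 one of 0.00504, with differences of −0.64 and −1.15. With WT replicate 1 or 2 left out it was 0.999 or 0.951.

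Cyp3a59, a less abundant neighbour, had 10.5 and 13.2 FPKM in WT against 5.67 and 6.58 FPKM in KO. This was a KO to WT ratio of 0.516 without overlap, close to the ratio of 0.541 for Cyp3a11 at a far lower level. Its log2 difference of −0.85 (SE 0.14) had the smallest adjusted p of all members (limma, 0.205), which became 0.0403 and 0.0291 without KO replicates 1 and 2, and 0.809 and 0.884 without WT replicates 1 and 2. Cyp3a25 had 128 and 167.5 FPKM in WT against 112 and 109 FPKM in KO (log2 difference −0.40, SE 0.16, limma adjusted p = 0.625). Both transcript rows of Cyp3a25 went the same way, the coding one with 91.7 and 120.8 FPKM in WT against 83.1 and 82.3 in KO and the non-coding one with 35.9 and 46.7 in WT against 28.6 and 26.4 in KO.

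Cyp3a13, an enzyme also found outside the liver, had 47.7 and 62.6 FPKM in WT against 49.5 and 87.5 FPKM in KO. The groups overlapped and only KO replicate 2 lay above WT (log2 difference 0.26, SE 0.28). Without KO replicate 2 its difference was −0.14. Cyp3a13 sits at 137892933 to 137925610 on chromosome 5, 7.42 megabases from the other 7 Cyp3a genes, which lie together at 145345149 to 146114978. This split by position was chosen after the values were seen. All 7 clustered genes had a lower mean in KO, but 4 are below 1 FPKM and were not tested. The 3 tested were lower in both KO libraries, where 16.4% of all genes tested were, and 4459 of 9820 had a negative difference. Of the 4 not tested, Cyp3a44 and Cyp3a41a were also lower without overlap and were picked after their values were seen. Cyp3a44 had 0.628 and 0.637 FPKM in WT against 0.265 and 0.400 in KO, and Cyp3a41a 0.0842 and 0.0804 in WT against 0.0261 and 0.0680 in KO.

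Shared sequence limits how far these genes can be told apart. Of 50-base windows of the Cyp3a59 transcript 24.7% also occur in Cyp3a25, and of Cyp3a41a 98.6% occur in other Cyp transcripts, mainly Cyp3a41b. For Cyp3a11 the shared part was 14.8%, and for Cyp3a13 it was 0%. How the authors assigned fragments that fit several genes is not given in the sources used here. Over the 59 members with a GENCODE transcript, 29 shared more than 10% of their windows and 12 shared none.

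**Figure D4:**
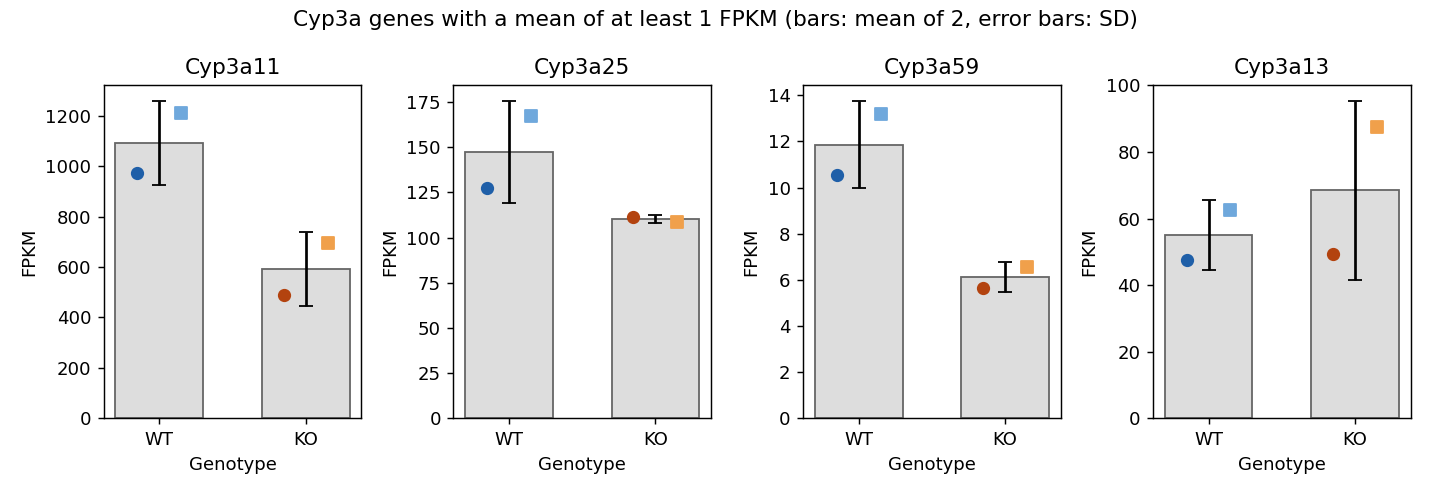
FPKM of the 4 Cyp3a genes with a mean of at least 1 FPKM; grey bars are means of 2 libraries, error bars SD, circles replicate 1 and squares replicate 2. In Cyp3a11, Cyp3a25 and Cyp3a59 both KO points lie below both WT points, whereas Cyp3a13 overlaps.

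Family 1 was represented by Cyp1a2, an AhR-regulated pericentral enzyme that oxidises caffeine and aromatic amines. It had 308 and 285 FPKM in WT against 280.3 and 180.2 FPKM in KO. KO replicate 1 lay just under the WT libraries, and KO replicate 2 stood lower than the other libraries. The log2 difference was −0.40 with SE 0.22 (limma adjusted p = 0.715), and it became −0.71 without KO replicate 1 (limma adjusted p = 0.0115) and −0.08 without KO replicate 2. KO replicate 2 is also the library in which the acute phase genes were high, and their part in the Cyp1a2 level was not tested. Cyp1a1, the inducible AhR target next to Cyp1a2 on chromosome 9, had 1.27 and 0.864 FPKM in WT against 0.883 and 0.553 FPKM in KO. Cyp1b1, mainly an enzyme outside hepatocytes, did not exceed 0.1003 FPKM in any library. Other AhR targets on the list were not called: 3 of 7 were measured, and Nqo1 had 5.69 and 5.71 FPKM in WT against 8.86 and 5.37 in KO, Ugt1a6a 38.8 and 37.1 in WT against 34.7 and 33.6 in KO, and Ugt1a6b 108 and 110.1 in WT against 110.7 and 106 in KO.

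The Cyp2c subfamily, whose members oxidise arachidonic and linoleic acid as well as drugs, had 16 genes, 13 of them tested. Its summed FPKM was 2077 and 1745 in WT against 2138 and 1710 in KO, a ratio of 1.01. Its log2 value of 0.0097 turned to −0.0178 with upper-quartile scaling, to −0.11 without WT replicate 2 and to −0.16 without KO replicate 1, and was 0.16 without KO replicate 2. Replicate 1 was higher than replicate 2 in both genotypes. Under this flat sum 9 members had a positive and 4 a negative difference (median 0.16), and 7 of 13 lay above WT in both KO libraries and 0 below (22.4% and 16.4% of all genes). Cyp2c29, its most abundant member and a CAR-responsive gene, had 719 and 512 FPKM in WT against 673 and 479 FPKM in KO, so the replicates differed more than the genotypes. Cyp2c70, which makes the muricholic acids of mouse bile, had 503 and 419 in WT against 497 and 386 in KO.

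The 7 genes with both KO libraries above WT were Cyp2c37, Cyp2c38, Cyp2c39, Cyp2c44, Cyp2c50, Cyp2c54 and Cyp2c69. Cyp2c37 had 107.9 and 104 FPKM in WT against 143 and 136 FPKM in KO, a tight split in each group (106 ± 2.60 against 140 ± 4.91 FPKM, SD, n = 2 each; log2 difference 0.39, SE 0.11, limma adjusted p = 0.469). Cyp2c38 had 5.78 and 6.84 FPKM in WT against 8.58 and 11.7 FPKM in KO (log2 difference 0.59, SE 0.16, limma adjusted p = 0.469), the largest positive difference among the members tested. Leaving out KO replicate 1 gave 0.79, with a limma adjusted p of 0.0257, and leaving out KO replicate 2 gave 0.39. Cyp2c50 had 279 and 267 in WT against 330.2 and 286 in KO, Cyp2c54 102 and 99.2 in WT against 119 and 112 in KO. Both lie near Cyp2c37 on chromosome 19. Cyp2c50 shares 21.2% of its windows with Cyp2c37, and Cyp2c54 shares 17.5% of its windows with Cyp2c50. Of the windows of Cyp2c37 30.1% and of those of Cyp2c54 25.7% occur in other Cyp transcripts. Their values may therefore not be independent.

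Cyp2c44, an arachidonic acid epoxygenase gene that shares no window with another Cyp gene, had 64.2 and 69.1 FPKM in WT against 71.3 and 78.5 FPKM in KO. The KO libraries were higher without overlap, by 0.16 on the log2 scale (SE 0.11). Cyp2c39, a retinoic acid hydroxylase, had 0.829 and 1.32 FPKM in WT against 1.37 and 1.72 in KO. Cyp2c67 was the member of this subfamily with the most negative difference, with 172 and 153 FPKM in WT against 158 and 114 in KO (−0.27, SE 0.18, overlapping). Leaving out KO replicate 1 moved this difference to −0.51 (limma adjusted p = 0.0584), and leaving out KO replicate 2 moved it to −0.0374. Cyp2c40 had 19.99 and 19.4 in WT against 26.3 and 17.2 in KO, Cyp2c55 3.69 and 2.38 in WT against 4.51 and 2.11 in KO, and Cyp2c69 6.66 and 6.86 in WT against 8.63 and 6.97 in KO. Of the windows of Cyp2c40 72.1% and of those of Cyp2c69 54.8% occur in other Cyp transcripts, so their values may not be independent.

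Cyp2a genes had a positive difference in 4 of 4 tested members (median 0.34), where 54.6% of all genes had one, though only Cyp2a22 did not overlap. Cyp2a5, the coumarin hydroxylase, had 196 and 233 FPKM in WT against 361 and 217 FPKM in KO. KO replicate 1 alone was high, and KO replicate 2 lay between the WT libraries (log2 difference 0.39, SE 0.25). Leaving out KO replicate 1 gave a difference of 0.02, and leaving out KO replicate 2 gave 0.75, where limma gave an adjusted p of 0.0291. Cyp2a4, a female-biased steroid hydroxylase, followed the same order with 4.34 and 5.21 FPKM in WT against 7.51 and 4.95 in KO. It shares 36.1% of its windows with Cyp2a5, and the part of Cyp2a5 fragments in its value was not tested. Cyp2a22 had 4.80 and 4.39 FPKM in WT against 5.44 and 7.08 in KO (log2 difference 0.37, SE 0.14, limma adjusted p = 0.625). Cyp2a12, the most abundant of the 4 and a testosterone hydroxylase, had 395 and 379 in WT against 399 and 394 in KO, with less than 0.05 between the groups on the log2 scale.

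Cyp2d genes, the largest group by summed level after Cyp2e1, showed members on both sides (4 positive and 5 negative of 9 tested, median −0.04). Both KO libraries were higher than WT in 4 of the 9 and lower in 0 (22.4% and 16.4% of all genes). Their sum was 2040.3 and 2198 FPKM in WT against 2214 and 1974 in KO. Cyp2d9, a male-specific testosterone hydroxylase, had 780.4 and 853 FPKM in WT against 815 and 669 FPKM in KO, where KO replicate 2 was the lowest library. Cyp2d26 had 600.1 and 668 in WT against 720.4 and 700.2 in KO, without overlap, and Cyp2d10 496 and 494 in WT against 502 and 421 in KO. Cyp2d40 had 43.3 and 42.0 in WT against 46.0 and 62.5 in KO (log2 difference 0.32, SE 0.16), mostly through KO replicate 2. Without KO replicate 1 its difference was 0.54 (limma adjusted p = 0.0446), and without KO replicate 2 it was 0.11. Cyp2d22 had 62.1 and 77.7 in WT against 63.5 and 59.1 in KO, Cyp2d12 8.35 and 12.6 in WT against 8.63 and 7.92 in KO, and the pseudogene Cyp2d37-ps 14.9 and 11.3 in WT against 16.7 and 15.1 in KO.

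Cyp2e1, which oxidises ethanol, acetone and paracetamol, was the most abundant member and made up 25.5% of the members' summed FPKM. It had 1959.8 and 2452 FPKM in WT against 2583 and 2552 FPKM in KO. The KO pair lay close together above WT replicate 2, with WT replicate 1 well below (log2 difference 0.23, SE 0.18). Without WT replicate 1 the log2 ratio of the group means was 0.07. Cyp2f2, the periportal enzyme that activates naphthalene, had 873 and 852 FPKM in WT against 659 and 707 FPKM in KO. Each pair was tight and KO lay lower (863 ± 14.9 against 683 ± 34.2 FPKM, SD, n = 2 each; log2 difference −0.34, SE 0.14, limma adjusted p = 0.636). With any library left out the difference of Cyp2f2 stayed between −0.39 and −0.29, and it shares no window with another Cyp transcript.

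Cyp2j genes, epoxygenases of arachidonic acid, had a negative difference in 3 of 3 tested members, where 4459 of all 9820 genes had one. Cyp2j5 had 197 and 194 FPKM in WT against 168 and 179 FPKM in KO, and Cyp2j6 had 21.96 and 22.2 in WT against 21.5 and 19.3 in KO. Both KO libraries were lower in these 2 genes, as in 16.4% of all genes. The differences were 0.17 and 0.11 on the log2 scale, each within 2 standard errors (0.11 for each). Cyp2r1, a vitamin D hydroxylase, had 6.14 and 8.44 in WT against 8.22 and 7.34 in KO. Its non-coding rows appeared in some libraries only, 1 of them at 1.23 FPKM in KO replicate 1 and near 0 elsewhere. Cyp2u1, a fatty acid hydroxylase, had 9.86 and 7.65 in WT against 8.07 and 5.96 in KO. In the Cyp2b subfamily, which CAR activators induce, Cyp2b10 was at 0.0723 and 0.132 FPKM in WT against 0.0966 and 0.0265 in KO. The female-biased Cyp2b9 was at 0.0241, 0.0528 and 0.0483 FPKM in 3 libraries and at 1.25 in KO replicate 2, and Cyp2b13 was listed at 0 in 3 libraries and at 0.0265 in KO replicate 2. Cyp2g1, an olfactory enzyme, and Cyp2s1, an enzyme of epithelia, reached at most 0.215 and 0.240 FPKM, and Cyp2t4 was above 0 in KO replicate 2 alone, at 0.0674 FPKM.

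The electron donor and the first enzyme of heme synthesis, on which P450 activity depends, were higher in both KO libraries without passing the threshold. Alas1, Por and Cyb5r3 were named by smallest p, which favours genes without overlap. Alas1, the rate-limiting enzyme of heme synthesis, had 50.6 and 40.9 FPKM in WT against 124 and 77.2 FPKM in KO (log2 difference 1.09, SE 0.24, limma adjusted p = 0.326). Por, the P450 reductase, had 37.5 and 36.8 in WT against 45.005 and 57.0 in KO (0.44, SE 0.14, limma adjusted p = 0.540). Without KO replicates 1 and 2 the difference of Alas1 was 0.75 and 1.42, and that of Por 0.60 and 0.27. Without WT replicates 1 and 2 it was 1.23 and 0.94 for Alas1, and 0.45 and 0.42 for Por. Cyb5r3, the cytochrome b5 reductase, had 207 and 186 in WT against 176 and 161 in KO. Of the 15 measured genes of this list of 16, 13 had a positive difference (54.6% of all genes) and 2 a negative one. The median was 0.08 against 0.02 over all genes. Both KO libraries were higher in 4 genes and lower in 1 (22.4% and 16.4% of all genes). Of the list 0 passed, and 2 had an unadjusted limma p under 0.05 (7.75% of all genes).

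No receptor on the list of those that regulate these families passed the threshold. Nr1i3, which encodes CAR, had 35.7 and 40.6 FPKM in WT against 48.3 and 40.8 in KO. Nr1i2, which encodes PXR and was picked after its values were seen, had 30.3 and 26.7 in WT against 27.6 and 26.4 in KO, overlapping (log2 difference −0.07, SE 0.11). Ncoa1, a coactivator, had 2.61 and 2.73 in WT against 2.25 and 2.30 in KO. Of 15 measured genes of the 17 on this list, 6 had a positive and 9 a negative difference, and 0 passed.

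Other targets of CAR and PXR, 8 of 13 measured, had 3 positive and 5 negative differences (median −0.16), and 0 passed. Of the 8, 3 were lower in both KO libraries and 1 higher without overlap (16.4% and 22.4% of all genes). The 3 with the smallest p are given here, and this choice favours genes without overlap. Slco1a4, an organic anion importer, had 2.77 and 3.27 FPKM in WT against 1.79 and 1.68 in KO (log2 difference −0.55, limma adjusted p = 0.313). Ces2a, a carboxylesterase, had 96.8 and 104.6 in WT against 74.1 and 81.9 in KO (−0.37), and Abcc2, an exporter of the bile canaliculus, 54.3 and 49.0 in WT against 43.3 and 40.1 in KO (−0.30).

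**Figure D5:**
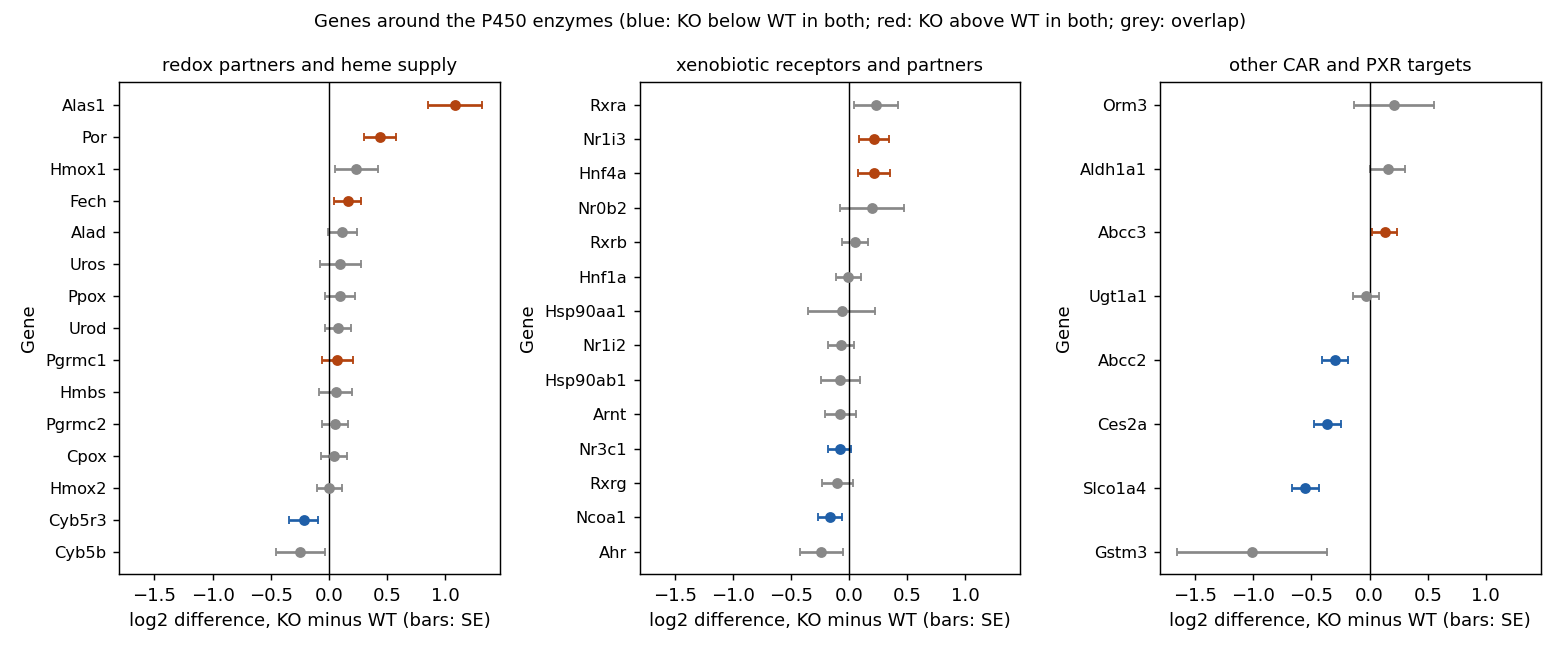
KO minus WT difference on log2(FPKM + 1) with its standard error for genes of 3 lists that had a mean of at least 1 FPKM, 1 gene left out: redox partners and heme supply, xenobiotic receptors and partners, and other CAR and PXR targets. Alas1 has the highest difference, 1.09, and Slco1a4, Ces2a and Abcc2 lie below 0 without overlap.

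Zonation and sex patterns were compared through genes outside the families. Of 15 pericentral genes, all measured, 7 had a positive and 8 a negative difference (median −0.05), and 0 passed. Oat had 246 and 318 FPKM in WT against 417 and 413 in KO and Lect2 93.9 and 90.8 in WT against 135 and 110.1 in KO. They were chosen by smallest p, which favours genes without overlap. Over the list 3 genes were higher in both KO libraries and 2 lower, Axin2 and Rgn (22.4% and 16.4% of all genes). Male-biased genes outside the families had 11 negative differences of 12 measured (median −0.33), where 4459 of all 9820 genes had one, and 0 passed. Both KO libraries were lower in 4 of them and higher in 1 (16.4% and 22.4% of all genes). Relative to the WT mean, KO replicate 2 had a median of −0.55 over this list and KO replicate 1 one of 0.04. Slco1a1 had 70.5 and 50.9 in WT against 42.4 and 42.0 in KO, C6 126 and 112 in WT against 107.0 and 77.6 in KO, and Susd4 5.60 and 5.24 in WT against 10.2 and 5.87 in KO. Slco1a1, C6 and Susd4 were named by smallest p, which favours genes without overlap. Over the libraries left out, the difference ran from −0.605 to −0.15 for C6 and from 0.0974 to 0.80 for Susd4. Among the female-biased members, 4 of 9 in the table were measured (Cyp2a4, Cyp2c39, Cyp2c40 and Cyp2c69). All 4 differences were positive, 2 did not overlap (22.4% of all genes were higher in KO without overlap) and 0 passed. Cyp2c40 and Cyp2c69 share most of their windows with other Cyp transcripts, so the 4 may not be independent. Of the others on this list, which were too low to be tested, Cyp3a44 and Cyp3a41a were lower in both KO libraries, and Cyp3a16 had 0.185 and 0.313 FPKM in WT against 0.115 and 0.199 in KO. Growth hormone and sex-dependent regulators had 7 positive and 5 negative differences of 12 measured, 0 passed, and KO replicate 1 was lowest in Bcl6 (18.8 and 8.92 in WT, 2.86 and 11.5 in KO) and highest in Socs2 (0.734 and 0.379 in WT, 3.33 and 0.507 in KO), while Igf1 had 136 and 135.6 in WT against 178 and 147 in KO. Without KO replicate 2 the difference was −1.86 for Bcl6 and 1.49 for Socs2, against −1.015 and 0.72 with all libraries.

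The libraries differed in how they ranked the members. KO replicate 1 held the highest value of 16 of the 38 members (42.1%; 26.7% of all genes tested), and KO replicate 2 the lowest value of 15 (39.5%; 26.8% of all genes). Relative to the WT mean, the median member was at 0.11 in KO replicate 1 and −0.08 in KO replicate 2 on the log2 scale, against 0.01 and 0.02 for all genes. The acute phase list, 22 of 22 measured with 20 positive differences and 0 passed, had medians of −0.38 and 0.90 in these libraries. Mt2 had 3.74 and 3.29 FPKM in WT against 8.67 and 230.3 in KO, Cebpb 45.9 and 53.5 in WT against 72.0 and 128 in KO, and Cebpd 1.59 and 2.18 in WT against 3.06 and 3.76 in KO. Without KO replicate 1 the difference was 5.68 for Mt2 and 1.35 for Cebpb. Without KO replicate 2 it was 1.10 for Mt2 and 0.53 for Cebpb. The part of this list in the levels of the members was not tested. For Cyp3a11 and Cyp3a59 KO replicate 1 was the lower of the KO pair. For Cyp3a25 it was KO replicate 2, at 109 FPKM against 112 in KO replicate 1.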

How the data were processed

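Liver RNA of 2 WT and 2 KO libraries was analysed, grouped and numbered by sample title. The table the authors deposited holds FPKM, with 1 row a RefSeq transcript and 1 column a library, per the file headers. Per the submitters' processing notes, Bowtie, TopHat and mm10 were used. Not given in the sources used here are their versions, what computed FPKM, strand use and the handling of fragments that fit several genes. FPKM hides depth. Steps of low values of single-transcript genes gave a rough depth per library, but only 49.0% to 51.7% of them lay within 0.1 of a whole fragment, so no count test was run.

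Rows were summed per gene number. Genes with a mean of at least 1 FPKM were tested on log2(FPKM + 1) with limma 3.58.1 in R 4.3.3 (intensity trend, Benjamini-Hochberg threshold of 0.05), without a replicate block. A log2 difference on this scale understates the change of low genes, and ratios are of group means of FPKM. The fit was tested on simulated data.

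The members and gene lists were chosen with earlier results of these data known. Named were Srebf1, the highest member of each subfamily, the 10 highest members, up to 8 members in each direction by difference, a fixed set of members, and up to 3 genes of each list by p. Of these, 2 list genes are not reported here. Promoters and coordinates came from RefSeq on GRCm38.p6. Shared sequence was counted in 50-base windows of GENCODE transcripts whose symbol starts with Cyp. Alternatives were pseudocounts, filters, scalings, no trend, the replicate block, the leading transcript row and each library left out. Tables were joined in Python 3.11.15 with pandas 2.3.3 and drawn with matplotlib 3.10.9.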

Additional observations from a re-analysis of the deposited data

How the results depend on the processing

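No member passed under any alternative that kept all 4 libraries. Some members passed with a KO library left out, and their log2 differences are given here. Without KO replicates 1 and 2 the differences were −0.64 and −1.15 for Cyp3a11, −0.76 and −0.94 for Cyp3a59 and −0.71 and −0.08 for Cyp1a2. They were 0.79 and 0.39 for Cyp2c38, 0.54 and 0.11 for Cyp2d40 and 0.02 and 0.75 for Cyp2a5. Calls over all genes also rose in both of these fits, most without KO replicate 1. No member passed without WT replicate 1 or without WT replicate 2. In these fits 1 group has a single library, assumed to vary like the other group. A pass in them is therefore not read as a result. The count of all genes called, 7, became 11 with a pseudocount of 0.1, 0 without a filter (1233 genes at an unadjusted p under 0.05), 3 with a minimum of 5 FPKM, 4 with quantile scaling, 4 with the leading transcript row and 19 with the replicate block, and ran from 1 to 357 with 1 library left out. Apart from the smaller number of libraries or genes in some of these fits, the cause was not tested.

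Over the libraries left out, the log2 difference of Cyp3a11 ran from −1.15 to −0.64 (limma adjusted p from 0.00504 to 0.999) and that of Cyp3a59 from −0.999 to −0.70. With the replicate block the adjusted p of Cyp3a59 was 0.0644, and no member was called. The labels do not say whether a replicate number marks a shared batch or day. Deviations of same-numbered libraries correlated at r = 0.17 over 9820 genes, and with 2 pairs whether the numbers pair the libraries was not settled, so they were not used as pairs. The log2 ratio of summed FPKM ran from −0.72 to −0.0819 for Cyp1a, 0.0286 to 0.34 for Cyp2a, 0.0666 to 0.39 for Cyp2e, −0.12 to 0.34 for Cyp2r, −0.16 to 0.16 for Cyp2c, −0.10 to 0.063 for Cyp2d and −0.997 to −0.54 for Cyp3a.

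Differences that changed sign with a library left out ran from −0.34 to 0.15 for Cyp2c29, −0.11 to 0.30 for Cyp2r1, −0.23 to 0.02 for Cyp2d10, −0.25 to 0.12 for Cyp2c70, −0.19 to 0.40 for Cyp2c40, −0.35 to 0.47 for Cyp2c55, −0.14 to 0.67 for Cyp3a13, −0.0728 to 0.56 for Nqo1 and −0.0386 to 0.0246 for Ugt1a6b. Of the alternative values of named genes 725 kept their direction and side of the threshold, 18 newly passed it, 3 no longer did and 13 changed sign. Fragments per gene are unknown, so no interval for counting error can be given.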
